A study of Homo sapiens with 4 samples.

Results

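Ultrasound is compared here with no ultrasound over all 4 arrays of the study, 4 of 4 in the series. The ultrasound side holds the array of U937 cells given ultrasound only (1 min at 0.3 W/cm2) and the array of cells given ultrasound of the same intensity and duration together with Sonazoid at 0.05%. The other side holds the array of untreated control cells and the array of cells given 0.05% Sonazoid only. The cells of each treated group were incubated for 3 h at 37°C before RNA was taken; the control label gives culture at 37°C and no time. U937 is an established human lymphoma line of immature myelomonocytic cells, and Sonazoid is a contrast agent of gas microbubbles in a lipid shell. Each treatment was hybridised on 1 array, so the arrays of a side differ in Sonazoid and are not replicates of 1 condition.

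Ultrasound waves press on and shear the membrane of cells in suspension and can open it briefly, and collapsing bubbles add to this. Cells answer many such insults with immediate early genes, which need no new protein to be transcribed and encode AP-1, KLF, EGR and NR4A transcription factors. Feedback genes follow that switch the signal off again, among them phosphatases of MAP kinases and inhibitors of G protein signalling, together with chaperones, the eIF2 alpha branch of the stress response and heme oxygenase.

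Signals are probe set intensities scaled so that the trimmed means of the arrays are equal, and each gene is represented by its brightest probe set. Values under the pooled median of 23.8, called the floor, were set to it before log2 was taken, and 11789 genes with a mean signal above the floor were measured. The side difference is the mean log2 signal of the ultrasound arrays minus that of the others. The gap is the log2 distance between the nearest arrays of the sides, and a gene was counted as separated where both ultrasound arrays lay beyond both other arrays. The genes above the floor numbered 11333 to 11444 per array, and the ratio of 3' to 5' signal, a measure of RNA integrity, was 1.16 to 1.2 for ACTB and 0.946 to 1.01 for GAPDH. Markers of the line were present, with ELANE, a granule protease, between 7974 (Sonazoid only) and 10586 (ultrasound only). The data come from whole cultures, in which fewer cells that carry a transcript and less of it per cell cannot be told apart.

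Of the measured genes 2535 (21.5%) lay higher on both ultrasound arrays than on both others and 2394 (20.3%) lay lower. With the values as deposited, without scaling, these counts were 2471 and 1483, so that genes lower with ultrasound made up 37.5% of the separated genes in place of 48.6%. Far fewer genes stood clear of the spread within a side: 44 genes (0.373%) were higher with a gap of at least 2-fold, and 3 genes (0.0254%) were lower by as much. The arrays of a side typically lay close, with a median distance between control and Sonazoid only of 1.10-fold and between ultrasound only and the combination of 1.13-fold over all measured genes. The 44 genes include FOSB, FOS, JUN, KLF6 and other early response transcription factors, the feedback genes DUSP1 and RGS2, the stress genes HSPA6 and PPP1R15A, and the membrane-binding protein gene ANXA1; 23 of them are in one of the 35 gene lists used and 21 in none. Their median side difference was 1.53 (log2), and 13 of them differed by at least 4-fold between the side means.

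An exact permutation test of 2 arrays against 2 cannot give a two-sided p under 0.33, so separation was counted and not tested. A limma fit over all measured genes, with the spread between the arrays of a side as its error, called 15 genes higher (0.127%) and 0 lower (0%) at a Benjamini-Hochberg adjusted p under 0.05. At an unadjusted p under 0.05 it had 689 genes higher and 448 lower. All of the 15 were among the 44 separated by at least 2-fold. The calls were not kept in smaller fits: with Sonazoid as a term in the fit, or without any 1 of the arrays, 0 genes passed at 1 residual degree of freedom, and the smallest adjusted p was 0.24 with the term and 0.43 to 0.69 without an array. At an unadjusted p under 0.05 the fit with the term had 689 genes higher and 457 lower, and the fits without an array had 448 to 813 higher and 234 to 559 lower. The side differences of the called genes with each array left out in turn ran, for example, from 2.85 to 2.91 for KLF6 and from 3.32 to 3.83 for RNA45SN5 (log2). Without the array of the combination, of ultrasound only, of Sonazoid only or of control, the genes separated by at least 2-fold upwards numbered 92, 81, 85 and 90, since fewer arrays then have to lie apart. The arrays of a side are single cultures under different treatments, so these p-values measure the spread among these samples and nothing about repeats of a treatment. The floor also removes spread: where both arrays of a side lie at it, as for FOSB and IFIT2 without ultrasound, their distance is 0. For KLF2, whose control array lies at the floor, that distance is narrowed. The p-values of these genes rest in part on a spread that the floor made smaller.

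**Figure D1:**
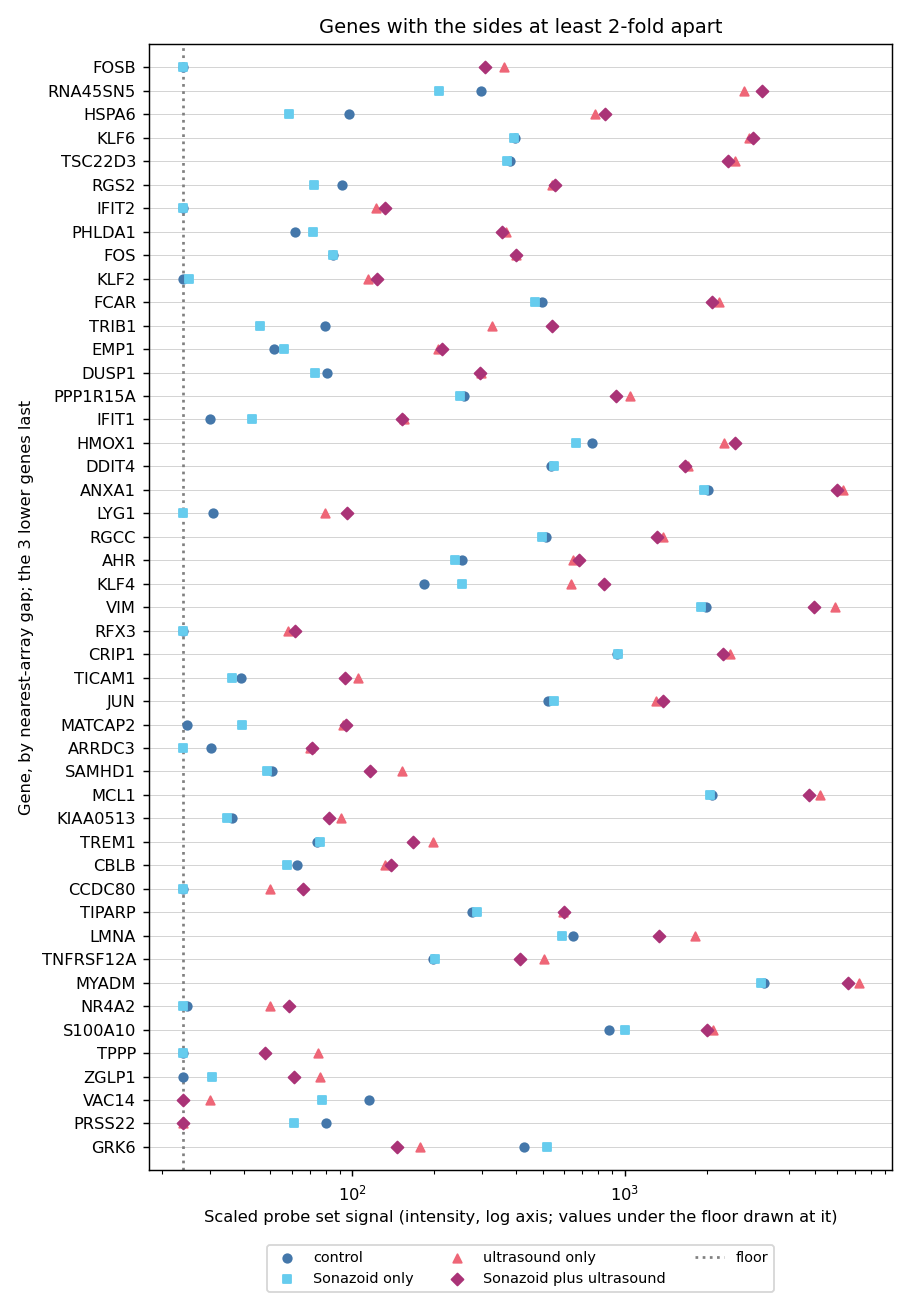
Scaled probe set signal (intensity, log axis) of the 44 genes higher and, in the last rows, the 3 genes lower with ultrasound whose sides lay at least 2-fold apart; each symbol is 1 array, and the dotted line is the floor of 23.8, at which lower values are drawn. In each row the ultrasound arrays (triangle, diamond) stand on one side of the arrays without ultrasound (circle, square), and for most of the 44 the symbols of a side lie close together.

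AP-1 transcription factors are dimers of FOS and JUN proteins that bind the AP-1 element, and 3 of the 11 measured members of the AP-1 and ATF list, FOSB, FOS and JUN, had a gap of at least 2-fold. FOSB was at 4.13 without treatment, 3.56 after Sonazoid alone, 360.0 after ultrasound alone and 307 after both. Both arrays without ultrasound were below the floor and both ultrasound arrays far above it, a side difference of at least 13.9-fold (limma, Benjamini-Hochberg adjusted p = 0.026). The floor set the distance between the arrays without ultrasound to 0, which narrows the spread behind this p-value. FOS stood at 84.9 (control) and 84.8 (Sonazoid only) without ultrasound and 400.3 (ultrasound only) and 398 (combination) with it. The arrays of each side were nearly equal for FOS, and the sides were 4.70-fold apart (limma, Benjamini-Hochberg adjusted p = 0.029). JUN, the partner of FOS, was at 522 without treatment, 550.4 after Sonazoid alone, 1306 after ultrasound alone and 1378 after both. Its sides did not overlap and differed 2.50-fold, which missed the threshold (limma, Benjamini-Hochberg adjusted p = 0.081), and its 3 other probe sets had side differences of 0.49, 1.76 and 1.91 (log2).

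JUND, the JUN family member that resting cells already express, stood at 3815 and 3408 on the ultrasound arrays (ultrasound only, then the combination) and at 2047 and 1877 on the others (control, then Sonazoid only). It lay 1.84-fold higher by side means with a gap of 1.67-fold. ATF3, a stress-induced repressor of the same family, was at 60.4 without treatment, 33.7 after Sonazoid alone, 113 after ultrasound alone and 145 after both. The sides of ATF3 did not overlap, but the Sonazoid only array lay well under control, so that the difference was 0.90 (log2) without and 2.11 with Sonazoid. The other probe set of ATF3 had a side difference of 0.35 (log2). Of the 13 listed genes 11 were measured, 9 lay higher on both ultrasound arrays than on both others and 0 lay lower, and the median side difference was 0.72 (0.49 to 0.74 under the alternative scalings, floors, filters and probe set choices). Of these genes 3 had a gap of at least 2-fold and 2 passed limma, FOSB and FOS.

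Krueppel-like factors, zinc finger proteins that bind GC-rich promoters, were among the clearest. KLF6, an early response factor, was at 397 without treatment, 394 after Sonazoid alone, 2852 after ultrasound alone and 2968 after both. The arrays within each side were almost the same for KLF6, and the sides lay 7.36-fold apart (limma, Benjamini-Hochberg adjusted p = 0.026), with 4 other probe sets separated the same way by side differences of 0.86, 2.77, 3.11 and 3.12 (log2). KLF4, a monocyte differentiation factor, stood at 183 (control) and 253 (Sonazoid only) without ultrasound and 636 (ultrasound only) and 838 (combination) with it. Both ultrasound arrays exceeded both others for KLF4, 3.39-fold by side means, with some spread on each side (limma, Benjamini-Hochberg adjusted p = 0.21). KLF2, known from quiescent lymphocytes and endothelium, was at 5.78 without treatment, 25.3 after Sonazoid alone, 114 after ultrasound alone and 124 after both. KLF2 was below the floor in control and just above it with Sonazoid only, so its side difference of 4.84-fold is a lower bound (limma, Benjamini-Hochberg adjusted p = 0.032).

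NR4A2, an orphan nuclear receptor induced by many stimuli, was dim, at 24.8 without treatment, 17.8 after Sonazoid alone, 49.8 after ultrasound alone and 58.7 after both. Its Sonazoid only array was below the floor and its ultrasound arrays were at least 2.01-fold above control. The 2 other probe sets of NR4A2 had side differences of 0.52 and 0.79, with gaps of 0.07 and 0.64 (log2), short of the 2-fold mark. EGR3, a zinc finger factor of calcium and MAP kinase signalling, stood at 44.3 without treatment, 44.4 after Sonazoid alone, 84.7 after ultrasound alone and 121 after both. The untreated and Sonazoid only arrays were equal for EGR3 and both ultrasound arrays higher, with a gap of 1.91-fold, just under the 2-fold mark. In the list of EGR, NR4A, IER and other immediate early genes 12 of 16 measured members were higher on both ultrasound arrays and 0 lower (median 0.77, range over the alternatives 0.43 to 0.79), and 5 members had a gap of at least 2-fold: KLF6, KLF2, TRIB1, KLF4 and NR4A2. Over all measured genes the median side difference was 0.01, with 21.5% separated higher and 20.3% lower, and each list count below is to be read against these shares. These lists were assembled with earlier results on these arrays known, so their counts describe the arrays and are no independent evidence.

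Promoter sequences of RefSeq (build GRCh38.p14), from 250 bases before to 50 after the transcription start, were at hand for 35 of the 44 genes. They are shown for the genes with the largest gaps that hold any of the motifs searched: chr19:45467746-45468045 (plus strand) for FOSB, chr1:161524290-161524589 (plus strand) for the HSP70 gene HSPA6, chr14:75278578-75278877 (plus strand) for FOS, chr12:13196476-13196775 (plus strand) for the membrane protein gene EMP1 and chr5:172771146-172771445 (minus strand) for the phosphatase gene DUSP1. Capitals mark motif matches: a TATA box (TATAAA) in FOSB, FOS and DUSP1, a heat shock element in HSPA6 (the run of 13 capitals), AP-1 elements in HSPA6 and EMP1 (in HSPA6 the second lies inside an antioxidant response element), and a cAMP response element (TGACGTCA) and an antioxidant response element in DUSP1.
FOSB: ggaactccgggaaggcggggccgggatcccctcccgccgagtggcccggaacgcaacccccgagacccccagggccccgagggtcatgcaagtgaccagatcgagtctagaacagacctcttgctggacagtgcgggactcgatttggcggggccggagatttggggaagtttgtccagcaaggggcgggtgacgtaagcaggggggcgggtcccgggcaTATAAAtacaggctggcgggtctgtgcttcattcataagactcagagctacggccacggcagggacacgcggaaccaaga
HSPA6: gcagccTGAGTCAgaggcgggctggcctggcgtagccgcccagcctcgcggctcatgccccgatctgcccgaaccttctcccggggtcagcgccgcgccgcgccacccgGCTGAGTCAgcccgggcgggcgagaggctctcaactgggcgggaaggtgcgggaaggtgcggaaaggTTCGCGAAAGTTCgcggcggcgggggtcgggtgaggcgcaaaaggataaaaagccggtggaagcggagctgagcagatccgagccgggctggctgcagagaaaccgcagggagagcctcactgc
FOS: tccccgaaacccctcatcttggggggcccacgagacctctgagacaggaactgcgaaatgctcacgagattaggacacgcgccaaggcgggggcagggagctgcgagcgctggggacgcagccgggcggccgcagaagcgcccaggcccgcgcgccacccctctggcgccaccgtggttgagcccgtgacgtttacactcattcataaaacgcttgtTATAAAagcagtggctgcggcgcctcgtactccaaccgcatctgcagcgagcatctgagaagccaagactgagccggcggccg
EMP1: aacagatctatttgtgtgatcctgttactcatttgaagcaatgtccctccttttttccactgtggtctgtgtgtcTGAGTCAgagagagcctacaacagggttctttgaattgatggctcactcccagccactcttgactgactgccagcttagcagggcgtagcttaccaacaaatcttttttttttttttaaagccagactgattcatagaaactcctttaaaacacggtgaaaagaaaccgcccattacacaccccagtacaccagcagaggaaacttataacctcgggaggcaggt
DUSP1: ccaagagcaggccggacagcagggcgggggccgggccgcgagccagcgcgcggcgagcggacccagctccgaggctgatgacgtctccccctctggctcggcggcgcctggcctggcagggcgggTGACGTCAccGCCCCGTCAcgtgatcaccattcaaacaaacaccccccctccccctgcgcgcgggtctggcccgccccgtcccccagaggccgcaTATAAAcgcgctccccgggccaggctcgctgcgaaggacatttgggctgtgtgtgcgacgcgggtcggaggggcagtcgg

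The motifs were searched on both strands. Shares are given for the 35 promoters, then for the 9638 promoters of measured genes and for all 27305 of the table. Any of the motifs was found in 12 of the 35, against 25.5% and 30%. The rest of the 35 held none, and the sequences above were printed because they hold a match. The heat shock element (3 GAA units in alternating orientation, each 2 bases apart) was found in 1, that of HSPA6 (2.86%, against 0.394% and 0.487%). The AP-1 element (TGAGTCA) was in 4, those of HSPA6, EMP1, MATCAP2 and ZGLP1 (11.4%, against 2.87% and 4.92%). The cAMP response element was in 2, those of DUSP1 and PPP1R15A (5.71%, against 3.23% and 1.98%). The antioxidant response element (TGACNNNGC), which can overlap the AP-1 element, was in 7 (20.0%, against 15.3% and 13.6%). The TATA box was in 6 (17.1%, against 5.86% and 12%), and the CArG box of serum response factor in 0 (against 1.1% and 1.29%). A match describes these letters in this window and no binding, and a missing match says nothing about sequence outside the window.

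Some feedback genes of signalling were higher on both ultrasound arrays and others lower. DUSP1, a phosphatase that inactivates the stress kinases p38 and JNK, was at 80.8 without treatment, 73.2 after Sonazoid alone, 296 after ultrasound alone and 295 after both. The sides of DUSP1 lay 3.84-fold apart with little spread within them (limma, Benjamini-Hochberg adjusted p = 0.036), and its other probe set had a side difference of 0.55 (log2). PHLDA1, a pleckstrin homology-like protein of growth factor feedback, stood at 61.7 (control) and 71.8 (Sonazoid only) without ultrasound and 368 (ultrasound only) and 356 (combination) with it. It was 5.44-fold higher (limma, Benjamini-Hochberg adjusted p = 0.032), while its 5 other probe sets ranged from 0.10 to 2.03 (log2). DUSP10, another phosphatase of p38 and JNK, was at 81.7 without treatment, 97.2 after Sonazoid alone, 176 after ultrasound alone and 178 after both, with a gap of 1.81-fold. The other probe set of DUSP10 had a side difference of 0.15 (log2). Of the MAPK phosphatase and ERK feedback list 9 of 15 measured members were higher on both ultrasound arrays and 4 lower (median 0.34, range over the alternatives 0.16 to 0.36).

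RGS2, which speeds the inactivation of Gq proteins, stood at 91.7 without treatment, 72.3 after Sonazoid alone, 543 after ultrasound alone and 557 after both. Both ultrasound arrays were close to each other and 6.76-fold above the others by side means (limma, Benjamini-Hochberg adjusted p = 0.036). RGS1, its relative in leukocytes, was dim, with signals of 17.8 without treatment, 28.5 after Sonazoid alone, 49.8 after ultrasound alone and 61.1 after both. Control was below the floor for RGS1 and its gap was 1.75-fold. Among the RGS proteins, 4 of 8 measured members were higher on both ultrasound arrays and 0 lower (median 0.05, range over the alternatives -0.02 to 0.11). The other separated members, RGS10 and RGS16, differed by side means of no more than 1.11-fold. TRIB1, a pseudokinase that brings substrates to the ubiquitin ligase COP1, was at 79.2 without treatment, 45.7 after Sonazoid alone, 326 after ultrasound alone and 539 after both. All 4 arrays differed for TRIB1: Sonazoid only was the lowest and the combination the highest, so the side difference of 6.97-fold held 2.04 (log2) without Sonazoid and 3.56 with it (limma, Benjamini-Hochberg adjusted p = 0.21).

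TSC22D3, the leucine zipper protein GILZ that restrains AP-1 and NF-kB, was at 379.9 without treatment, 369 after Sonazoid alone, 2536 after ultrasound alone and 2384 after both. It lay 6.57-fold higher with ultrasound (limma, Benjamini-Hochberg adjusted p = 0.026), and its other probe set above the floor had a side difference of 2.30 (log2). SGK1, a kinase induced by glucocorticoids and by cell shrinkage, stood at 259.8 without treatment, 294 after Sonazoid alone, 565 after ultrasound alone and 715 after both. Its sides did not overlap, with a gap of 1.92-fold. In the list of glucocorticoid-inducible and TSC22D genes 7 of 11 measured members were higher on both ultrasound arrays and 1 lower (median 0.34, range over the alternatives 0.04 to 0.56). ARRDC3, an adaptor that sorts membrane receptors, was dim, at 30.4 without treatment, 18.6 after Sonazoid alone, 70.3 after ultrasound alone and 71.4 after both, and both ultrasound arrays were more than 2-fold above control. CBLB, a ubiquitin ligase that ends receptor signalling, was at 63.0 without treatment, 57.8 after Sonazoid alone, 132 after ultrasound alone and 139 after both, higher on both ultrasound arrays and 2.24-fold by side means. RGCC, a regulator of the cell cycle kinase CDK1, stood at 515 without treatment, 496 after Sonazoid alone, 1378 after ultrasound alone and 1312 after both. The arrays within a side nearly coincided for RGCC and the sides differed 2.66-fold (limma, Benjamini-Hochberg adjusted p = 0.074).

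Among stress effectors, a few genes stood far apart in families whose medians lay near that of all genes. HSPA6, a strongly stress-inducible HSP70 chaperone, whose promoter above carries a heat shock element, was at 97.3 without treatment, 58.5 after Sonazoid alone, 780.0 after ultrasound alone and 844 after both. The ultrasound arrays were close and the others less so for HSPA6, and the side difference of 10.8-fold missed the threshold (limma, Benjamini-Hochberg adjusted p = 0.077); its other probe set gave 2.96 (log2). Of the heat shock proteins and co-chaperones, 6 of 18 measured members were higher on both ultrasound arrays and 3 lower (median 0.05, range over the alternatives -0.04 to 0.08), against 21.5% higher and 20.3% lower among all measured genes. DNAJB1, an HSP40 partner of HSP70, stood at 2338 and 2313 on the ultrasound arrays (ultrasound only, then the combination) and at 1643 and 1604 on the others (control, then Sonazoid only). Both ultrasound arrays exceeded the others, by 1.43-fold, while HSPA4, an HSP110-type exchange factor, was at 1471 without treatment, 1477 after Sonazoid alone, 1040.3 after ultrasound alone and 1089.5 after both, lower on both ultrasound arrays.

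PPP1R15A (GADD34), the stress-induced subunit that brings protein phosphatase 1 to eIF2 alpha, was at 257 without treatment, 248 after Sonazoid alone, 1043 after ultrasound alone and 933 after both. It lay 3.91-fold higher (limma, Benjamini-Hochberg adjusted p = 0.036), and its other probe set gave a side difference of 2.07 (log2). DDIT4 (REDD1), an inhibitor of mTORC1, stood at 538 (control) and 549.7 (Sonazoid only) without ultrasound and 1700.2 (ultrasound only) and 1666 (combination) with it. The arrays of each side nearly coincided and the sides were 3.10-fold apart (limma, Benjamini-Hochberg adjusted p = 0.042). ATF4, the transcription factor of this response, was at 3916 without treatment, 4013 after Sonazoid alone, 5075 after ultrasound alone and 5825 after both, which is 1.37-fold by side means. Of the ATF4 and integrated stress response list 10 of 21 measured members were higher on both ultrasound arrays and 2 lower (median 0.18, range over the alternatives 0.13 to 0.20), and PPP1R15A and DDIT4 were the members with a gap of at least 2-fold. HMOX1, which degrades heme, was at 758 without treatment, 663 after Sonazoid alone, 2306 after ultrasound alone and 2550.0 after both. Both ultrasound arrays stood above both others for HMOX1, 3.42-fold by side means (limma, Benjamini-Hochberg adjusted p = 0.073). In the NRF2 and oxidative stress list 7 of 20 measured members were higher on both ultrasound arrays and 2 lower (median 0.05, range over the alternatives 0.01 to 0.08), and NQO1, a classical target of NRF2, had a side difference of 0.13 (log2). The ER chaperone list had 6 of 18 measured members separated higher and 3 lower (median 0.07, range over the alternatives -0.0014 to 0.09), with calreticulin (CALR) highest by gap at 1246 without treatment, 1189 after Sonazoid alone, 1597 after ultrasound alone and 1521 after both. Other probe sets of CALR gave side differences of -0.12 and 0.49 (log2).

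Several genes for proteins of the membrane and its support were higher with ultrasound. Apart from the annexins and S100 proteins they were grouped after their values were seen. ANXA1, which binds membrane phospholipids when calcium is present, was at 2013 without treatment, 1949 after Sonazoid alone, 6326 after ultrasound alone and 6005 after both. The arrays within each side lay close for ANXA1 and the sides were 3.11-fold apart (limma, Benjamini-Hochberg adjusted p = 0.044). S100A10, the light chain of the annexin A2 complex, stood at 2112 and 2008 on the ultrasound arrays (ultrasound only, then the combination) and at 878 and 1002 on the others (control, then Sonazoid only). Its gap of 2.00-fold was just above the 2-fold mark. Of the annexins and S100 partners, 8 of 13 measured members were higher on both ultrasound arrays and 0 lower (median 0.14, range over the alternatives 0.12 to 0.19). ANXA2 itself was at 6632 without treatment, 6743 after Sonazoid alone, 8016 after ultrasound alone and 7888 after both, 1.19-fold by side means.

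VIM, the intermediate filament protein vimentin, was at 1980.3 without treatment, 1899 after Sonazoid alone, 5915 after ultrasound alone and 4939 after both. The sides were 2.79-fold apart, with the combination below ultrasound only (limma, Benjamini-Hochberg adjusted p = 0.12). LMNA, which encodes the nuclear lamins A and C, stood at 648 (control) and 587 (Sonazoid only) without ultrasound and 1805 (ultrasound only) and 1335 (combination) with it. The combination was again the lower of the ultrasound arrays, and all 4 other probe sets of LMNA were separated the same way, with side differences from 0.32 to 1.77 (log2). MYADM, a myeloid membrane protein of lipid rafts, was at 3245 without treatment, 3161 after Sonazoid alone, 7220.5 after ultrasound alone and 6606 after both, and its sides did not overlap (2.16-fold). EMP1, a tetraspan membrane protein, stood at 51.6 without treatment, 56.2 after Sonazoid alone, 207 after ultrasound alone and 213 after both. The arrays within each side were close for EMP1 and the side means 3.90-fold apart (limma, Benjamini-Hochberg adjusted p = 0.036), and its other probe set gave 2.22 (log2). CRIP1, a small LIM domain protein, was at 934 without treatment, 947 after Sonazoid alone, 2432 after ultrasound alone and 2289.6 after both, with both ultrasound arrays 2.42-fold or more above the others. TNFRSF12A, the receptor of the cytokine TWEAK, was at 198 without treatment, 202 after Sonazoid alone, 506 after ultrasound alone and 414 after both, also higher on both.

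Membrane repair factors and mechanosensitive channels had 4 of 16 measured members separated higher and 1 lower (median 0.04, range over the alternatives -0.01 to 0.07), against 21.5% and 20.3% of all measured genes, and 0 members with a gap of 2-fold. PANX1, a channel that releases ATP, was at 242 without treatment, 315 after Sonazoid alone, 418 after ultrasound alone and 446 after both, the largest gap of the list (1.33-fold). PIEZO1, a stretch-gated cation channel, stood at 1139.7 and 891 on the ultrasound arrays (ultrasound only, then the combination) and at 717 and 819.7 on the others (control, then Sonazoid only), a gap of 1.09-fold. Other probe sets gave side differences of -0.45 and 0.55 for PIEZO1 and of 0.60, 0.53 and -0.06 for PANX1 (log2). Targets of SRF and actin cytoskeleton genes showed 5 of 16 measured members separated higher and 4 lower (median 0.06, range over the alternatives 0.03 to 0.10). MYL9 was dim and below the floor on both ultrasound arrays, and TPM4, a tropomyosin, was 1.24-fold lower by side means. ACTB, a control gene, overlapped between the sides, at 20403 without treatment, 18718 after Sonazoid alone, 22436 after ultrasound alone and 19421 after both, and so did GAPDH, at 15126 without treatment, 13577 after Sonazoid alone, 16187 after ultrasound alone and 14039 after both.

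Among genes of innate immunity, FCAR, the myeloid receptor for IgA, was at 495 without treatment, 467 after Sonazoid alone, 2211 after ultrasound alone and 2092 after both. Its sides were 4.47-fold apart (limma, Benjamini-Hochberg adjusted p = 0.032); of 3 other probe sets 2 gave 2.05 and 2.08 and 1 gave -0.03 (log2). TREM1, a receptor that amplifies inflammation in monocytes, stood at 199 and 168 on the ultrasound arrays (ultrasound only, then the combination) and at 74.4 and 76.0 on the others (control, then Sonazoid only), with a gap of 2.20-fold. TICAM1 (TRIF), the adaptor of Toll-like receptors 3 and 4, was at 39.2 without treatment, 36.4 after Sonazoid alone, 105 after ultrasound alone and 94.1 after both, 2.63-fold by side means. SAMHD1, which hydrolyses dNTPs and restricts retroviruses, was at 50.6 without treatment, 48.5 after Sonazoid alone, 152 after ultrasound alone and 117 after both, and 2 other probe sets gave 1.24 and 1.68 (log2).

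IFIT2, an interferon-induced RNA-binding protein, was at 21.5 without treatment, 14.0 after Sonazoid alone, 122 after ultrasound alone and 132 after both. Both arrays without ultrasound were below the floor, so that the side difference of 5.34-fold is a lower bound (limma, Benjamini-Hochberg adjusted p = 0.029). IFIT1 stood at 30.1 without treatment, 43.0 after Sonazoid alone, 155 after ultrasound alone and 152 after both, its control lower than Sonazoid only and both far under the ultrasound arrays. The chemokine CXCL10 was at 87.6 without treatment, 75.8 after Sonazoid alone, 149 after ultrasound alone and 171 after both, a gap of 1.70-fold. In the whole list of interferon-stimulated genes 8 of 18 measured members were higher on both ultrasound arrays and 2 lower (median 0.01, range over the alternatives -0.07 to 0.20). Cytokines and chemokines had 8 of 10 measured members separated higher and 1 lower (median 0.36, range over the alternatives 0.27 to 0.38); CXCL2, which attracts neutrophils, was at 84.5 without treatment, 57.2 after Sonazoid alone, 164 after ultrasound alone and 206 after both, and TNF at 119.9 (control) and 111 (Sonazoid only) without ultrasound and 265 (ultrasound only) and 206 (combination) with it. For both genes the ultrasound arrays stood above the others, with gaps of 1.94-fold and 1.72-fold, while IL1B was lower, at 170.4 without treatment, 186 after Sonazoid alone, 140.5 after ultrasound alone and 144 after both. The sides overlapped on the other probe set of IL1B (side difference -0.08, log2). Of the NF-kB subunits, inhibitors and targets, 8 of 14 measured members were higher on both ultrasound arrays and 2 lower (median 0.22, range over the alternatives 0.07 to 0.33), and the largest gaps were those of TNFAIP3 and NFKBIA, feedback inhibitors, and of NFKBIZ, with side differences of 0.66, 0.67 and 0.81 (log2).

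AHR, the ligand-activated aryl hydrocarbon receptor, was at 254 without treatment, 238 after Sonazoid alone, 644 after ultrasound alone and 678 after both. Its sides were 2.69-fold apart (limma, Benjamini-Hochberg adjusted p = 0.075), and its target TIPARP, a mono-ADP-ribosyltransferase that represses AHR, stood at 274 without treatment, 286 after Sonazoid alone, 594 after ultrasound alone and 600.1 after both, 2.13-fold by side means. Both pairs of ultrasound arrays were tight. Among survival genes, MCL1, an unstable member of the BCL2 family, was at 2085 without treatment, 2057 after Sonazoid alone, 5199 after ultrasound alone and 4762 after both. MCL1 lay 2.40-fold higher (limma, Benjamini-Hochberg adjusted p = 0.099), and all 5 other probe sets gave 0.91 to 1.48 (log2). Of the anti-apoptotic genes, 3 of 13 measured members were higher on both ultrasound arrays and 2 lower (median 0.01, range over the alternatives 0.01 to 0.03), and MCL1 was the 1 with a gap of 2-fold. Pro-apoptotic and death receptor genes showed 7 of 21 measured members separated higher and 5 lower (median 0.08, range over the alternatives 0.06 to 0.10). PMAIP1, the BH3-only protein NOXA that binds MCL1, was at 745 without treatment, 705 after Sonazoid alone, 1069 after ultrasound alone and 1260.1 after both, and APAF1, the core of the apoptosome, at 175 (control) and 164 (Sonazoid only) without ultrasound and 132 (ultrasound only) and 111 (combination) with it. PMAIP1 was thus higher and APAF1 lower on both ultrasound arrays, 1.60-fold and 1.40-fold by side means. The other probe set of PMAIP1 gave a side difference of 1.30, and that of APAF1 went the opposite way to the first (0.13, log2). Growth arrest genes showed 7 of 16 measured members separated higher and 3 lower (median 0.22, range over the alternatives 0.08 to 0.26); CDKN1A, the inhibitor p21, had a side difference of 1.48 and a gap of 1.73-fold, with its Sonazoid only array far under control.

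RNA45SN5, the 45S precursor from which ribosomal RNA is cut, was at 296 without treatment, 208 after Sonazoid alone, 2749 after ultrasound alone and 3181 after both. The sides were 11.9-fold apart (limma, Benjamini-Hochberg adjusted p = 0.036), and its other probe set gave 3.29 (log2). Control probe sets of the array for mature ribosomal RNA were in part higher too. The one for the 5' end of 28S rRNA was at 358 without treatment, 566 after Sonazoid alone, 2005 after ultrasound alone and 16854 after both, and that for its middle at 1258, 2468, 4677 and 5059.8 in the same order. Both ultrasound arrays exceeded both others on these 28S probe sets, and the combination was far the highest at the 5' end. The probe set for the 3' end of 28S was at 34.8, 33.5, 71.9 and 31.8, and of 18S rRNA the middle was higher on both ultrasound arrays (69.3, 66.7, 106 and 122) while the 5' and 3' ends overlapped. The labelling starts from the poly(A) tail, which mature ribosomal RNA lacks; the part of ribosomal RNA carried into the labelled sample in the result for RNA45SN5 was not tested.

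**Figure D2:**
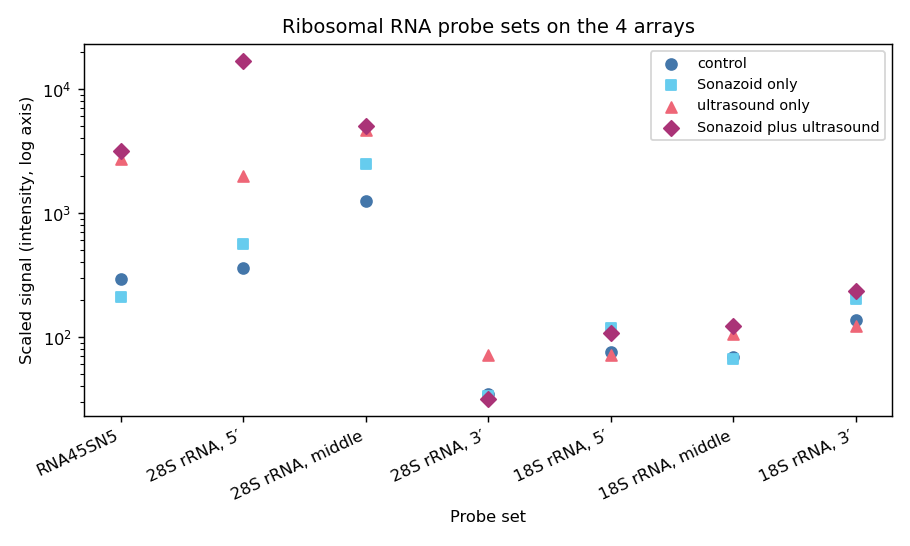
Scaled signal (intensity, log axis) of RNA45SN5 and of the array's control probe sets for 28S and 18S ribosomal RNA; each symbol is 1 array. The ultrasound arrays are the highest for RNA45SN5 and for the 5' and middle probe sets of 28S rRNA, where the combination reaches 16854 at the 5' end, and the sides overlap for the 3' end of 28S and for both ends of 18S.

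Other genes among the 44 were dim. LYG1, a goose-type lysozyme, was at 30.8 without treatment, 22.2 after Sonazoid alone, 79.5 after ultrasound alone and 95.7 after both. RFX3, a transcription factor of ciliated cells, stood at 5.94 without treatment, 16.8 after Sonazoid alone, 58.3 after ultrasound alone and 61.5 after both. MATCAP2, of a family of tubulin-cutting peptidases, was at 24.7 without treatment, 39.3 after Sonazoid alone, 92.6 after ultrasound alone and 94.9 after both. In all of these both ultrasound arrays were well clear of the others, but the levels without ultrasound lay at or near the floor. KIAA0513 (2.44-fold), CCDC80 (at least 2.40-fold), TPPP, a tubulin-binding protein (at least 2.51-fold), and ZGLP1 (at least 2.52-fold) complete the set. The 2-fold mark itself fell among close values: TPPP and ZGLP1 lay just inside it with gaps of 1.00 (log2), as did S100A10, and MS4A14 (0.999) and RAB11FIP1 (0.98) just outside.

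With a gap of at least 2-fold only GRK6, VAC14 and PRSS22 were lower with ultrasound, and VAC14 and PRSS22 were dim. GRK6, a kinase that silences G protein-coupled receptors, was at 427 without treatment, 518 after Sonazoid alone, 177 after ultrasound alone and 145 after both. Both ultrasound arrays lay under both others, 2.93-fold lower by side means (limma, Benjamini-Hochberg adjusted p = 0.16), but its 3 other probe sets gave -0.22, -0.22 and -0.11 (log2). VAC14, a scaffold of the lipid kinase PIKfyve, stood at 116 without treatment, 77.7 after Sonazoid alone, 30.0 after ultrasound alone and 18.7 after both, at least 3.55-fold lower, and its other probe set went the opposite way (1.01). PRSS22, a serine protease, was at 80.0 without treatment, 61.0 after Sonazoid alone, 16.3 after ultrasound alone and 22.7 after both, with both ultrasound arrays below the floor. WT1, the zinc finger factor of leukaemic blasts, was at 248 without treatment, 266 after Sonazoid alone, 144 after ultrasound alone and 129.8 after both, and NHLRC2 at 122 and 122 on the ultrasound arrays (ultrasound only, then the combination) and at 247 and 234 on the others (control, then Sonazoid only). WT1 and NHLRC2 had gaps of 1.73-fold and 1.91-fold, and other probe sets gave -0.41 for WT1 and -0.17 and -0.04 for NHLRC2. ASPRV1, SLAIN1, RPS4Y1, TMEM17, DGCR11, CPB2 and HAPLN3 had side differences from -0.90 to -1.12 (log2), and OR1D2, IL17B, FER, GNG3 and RAP1GAP were below the floor on both ultrasound arrays.

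The balance of higher and lower genes differed between groups of genes by brightness, both for separation of any size and for large gaps. The measured genes were split by mean signal into 4 groups of equal size. From the dimmest to the brightest group 593, 659, 546 and 737 genes were separated higher by any amount, and 442, 538, 754 and 660 lower, so that lower genes outnumbered higher ones in the third group. Among genes with a gap of at least 1.5-fold, 65 were higher and 39 lower in the dimmest group (mean signal 23.9 to 85.1), 38 and 4 in the next, 23 and 2 in the third, and 20 and 2 in the brightest group (above 929). The arrays of a side also lay farther apart in dim genes: the median distance between ultrasound only and the combination was 0.36 (log2) in the dimmest group and 0.10 in the brightest. Of the 44 genes 14 belonged to the brightest group. At least 1 other probe set above the floor was at hand for 18 of the 44. For 17 of these (94.4%) at least 1 was separated in the same direction by at least 1.5-fold, against 1.89% of all genes with another probe set. The exception was DUSP1. Not every other probe set was so separated: 1 of FCAR gave -0.03 and 1 of PHLDA1 gave 0.10 (log2). The 44 were chosen by their gap, and their other probe sets read the same genes on the same arrays. The higher share is therefore no independent evidence. Of the 3 lower genes 2 had another probe set, and 0 of these were separated lower by 1.5-fold.

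**Figure D3:**
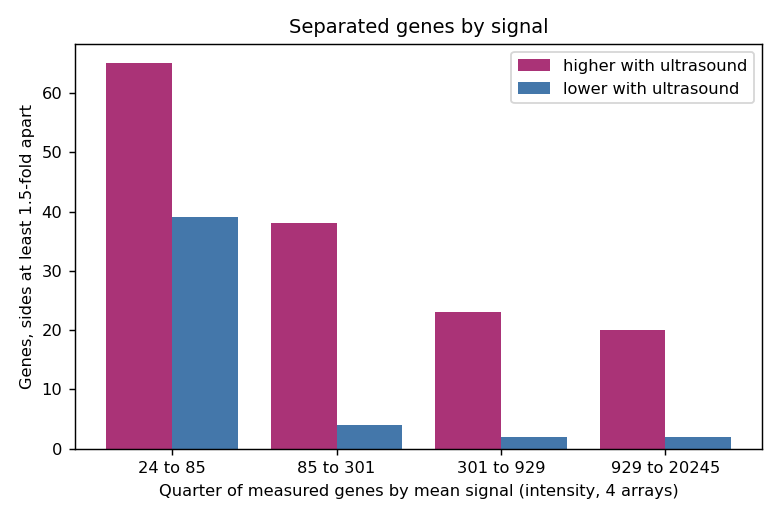
Number of genes whose sides lay at least 1.5-fold apart, in 4 equal groups of the measured genes by mean signal (intensity over 4 arrays); bars are genes higher and lower with ultrasound. Lower genes are 39 in the dimmest group and between 2 and 4 in each of the others, while higher genes go from 65 to 20.

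The ultrasound difference can be read without Sonazoid (ultrasound only minus control) and with it (the combination minus Sonazoid only), from arrays that are not shared. Over the 11789 measured genes these differences correlated across genes with Pearson's r = 0.26 and Spearman's rho = 0.22; genes are not independent and all 4 arrays share the platform and its scaling. In each of the 44 higher genes both differences are at least 2-fold by the choice of that gap, so their shared direction is no evidence. The median distance between the differences, without sign, was 0.18 (log2) for the 44 higher genes and 0.20 for all. They departed by 1.5-fold or more in 7 of 44 (15.9%), against 15.2% among all measured genes. The choice by gap favours genes whose arrays of a side lie close. In 5 of the 44 the floor also sets the distance between the arrays without ultrasound to 0. These values therefore do not compare the 44 with all genes on equal terms. The difference was larger with Sonazoid for TRIB1 (2.04 without and 3.56 with, log2), HSPA6 (3.00 and 3.85), RNA45SN5 (3.22 and 3.93) and LYG1 (1.37 and at least 2.01). In each of these 4 genes the Sonazoid only array was below control. It was smaller with Sonazoid for ZGLP1 (at least 1.67 and 1.00), TPPP (at least 1.65 and at least 1.00), MATCAP2 (1.91 and 1.27) and IFIT1 (2.36 and 1.82). GRK6 had differences of -1.27 without and -1.83 with Sonazoid, and PRSS22 of -1.75 and -1.36, both bounds. With 1 array per treatment these departures have no residual degree of freedom and were not tested.

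**Figure D4:**
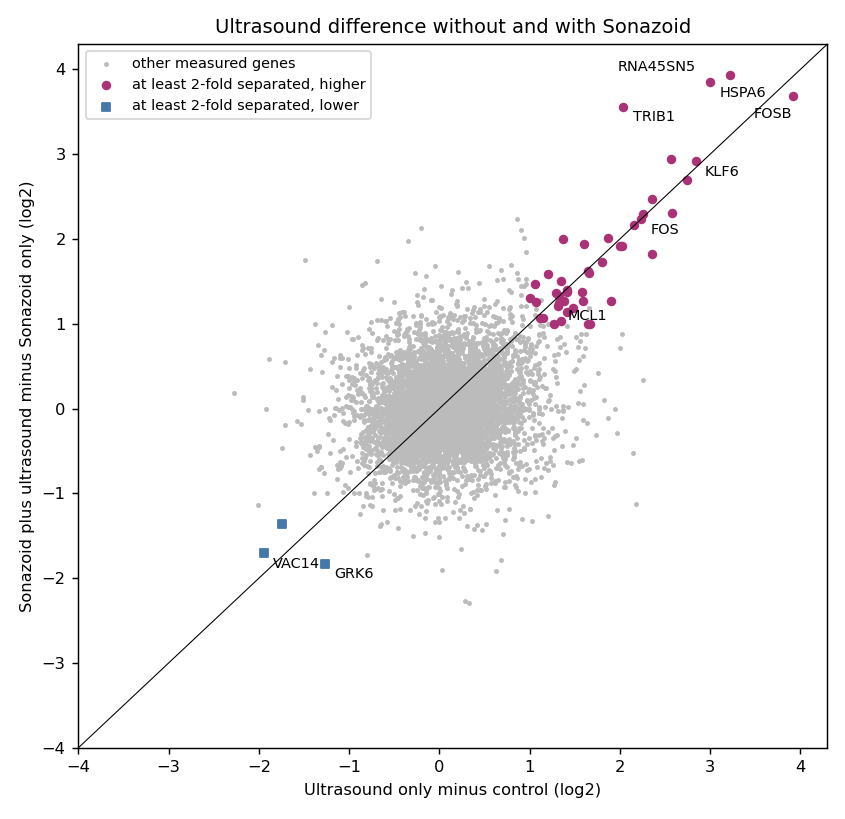
Log2 difference of ultrasound only from control (horizontal) against that of Sonazoid plus ultrasound from Sonazoid only (vertical) for 11789 measured genes; the line marks equal differences. The 44 genes higher by a gap of at least 2-fold lie along the line, with TRIB1 above it (2.04 and 3.56), and the bulk of the genes forms a cloud about 0. Such a gap makes both differences at least 2-fold, so the place of the 44 at the upper right follows from their selection.

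Lists of growth and housekeeping genes had no member with a gap of at least 2-fold; their counts stand against 21.5% of all measured genes separated higher and 20.3% lower, with a median of 0.01. G2/M and mitosis genes had the largest share of lower members among the 35 lists, with 1 of 26 measured members separated higher and 14 lower (median -0.13, range over the alternatives -0.15 to -0.11). TOP2A, the topoisomerase of dividing cells, was at 3429 without treatment, 3712 after Sonazoid alone, 2520.0 after ultrasound alone and 2969 after both, and the spindle protein HMMR at 2308 (control) and 2336 (Sonazoid only) without ultrasound and 1903 (ultrasound only) and 1958 (combination) with it. Both were lower on both ultrasound arrays, by no more than 1.30-fold, and limma gave Benjamini-Hochberg adjusted p-values of 0.48 and 0.52. Other probe sets of TOP2A gave side differences of -0.09, barely separated, and -0.21, with the sides overlapping (log2). The other probe set of HMMR gave -0.09 and its sides overlapped. In the MYC and MAX network 1 of 8 measured members were higher on both ultrasound arrays and 4 lower (median -0.21, range over the alternatives -0.22 to -0.09), and MYC was at 6836 without treatment, 7287 after Sonazoid alone, 5728 after ultrasound alone and 5243 after both. MYC was lower on both ultrasound arrays, 1.29-fold by side means. Aminoacyl-tRNA synthetases, which charge tRNAs, showed 0 of 17 measured members separated higher and 7 lower (median -0.08, range over the alternatives -0.09 to -0.06). G1/S and DNA replication genes had 3 of 23 measured members separated higher and 2 lower (median 0.04, range over the alternatives -0.03 to 0.06), and sterol synthesis genes 2 of 13 measured members separated higher and 2 lower (median -0.03, range over the alternatives -0.09 to -0.0048).

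Cytosolic ribosomal proteins showed 4 of 17 measured members separated higher and 0 lower (median 0.11, range over the alternatives 0.02 to 0.14), oxidative phosphorylation subunits 5 of 19 measured members separated higher and 0 lower (median 0.03, range over the alternatives -0.01 to 0.06), proteasome subunits 8 of 23 measured members separated higher and 3 lower (median 0.06, range over the alternatives 0.01 to 0.08), and lysosome and autophagy genes 7 of 21 measured members separated higher and 2 lower (median 0.09, range over the alternatives 0.05 to 0.11). In the hypoxia and glycolysis list 5 of 22 measured members were higher on both ultrasound arrays and 3 lower (median 0.06, range over the alternatives -0.03 to 0.08), with the peptide hormone gene ADM at 54.5 without treatment, 63.1 after Sonazoid alone, 87.3 after ultrasound alone and 113 after both. Metallothioneins and zinc transporters had 6 of 9 measured members separated higher and 1 lower (median 0.17, range over the alternatives 0.14 to 0.19); the zinc exporter SLC30A1 was at 1411 without treatment, 1462 after Sonazoid alone, 2163 after ultrasound alone and 2419 after both, above the others on both ultrasound arrays with a gap of 1.48-fold. Replication-dependent histones had 5 of 9 measured members separated higher and 1 lower (median 0.24, range over the alternatives 0.01 to 0.26), where the lowest median came from gene-specific probe sets. TXNIP, arrestin-domain and MondoA targets had 4 of 6 measured members separated higher and 1 lower (median 0.28, range over the alternatives 0.23 to 0.30), AU-rich decay factors 2 of 10 measured members separated higher and 1 lower (median -0.03, range over the alternatives -0.07 to -0.01), with ZFP36 the largest gap (1.49-fold), cAMP and CREB targets 4 of 12 measured members separated higher and 2 lower (median 0.05, range over the alternatives 0.04 to 0.20), and calcium and NFAT targets 4 of 11 measured members separated higher and 2 lower (median 0.02, range over the alternatives -0.09 to 0.18). Among the noncoding RNAs, 3 of 7 measured members were higher on both ultrasound arrays and 0 lower (median 0.04, range over the alternatives -0.08 to 0.13). RNA45SN5 was the noncoding RNA with a gap of at least 2-fold. Such a gap was also held by FOSB and RGS2 of the cAMP and CREB targets and by ARRDC3 of the arrestin-domain list. Of these genes limma called FOSB, RGS2 and RNA45SN5. In all, 23 of the 516 measured list members (4.46%) were higher by a gap of 2-fold, in 14 of 35 lists, against 0.373% of all measured genes. The lists were assembled with earlier results on these arrays known, so the larger share is no independent evidence. Of the 44 genes 21 were in no list.

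**Figure D5:**
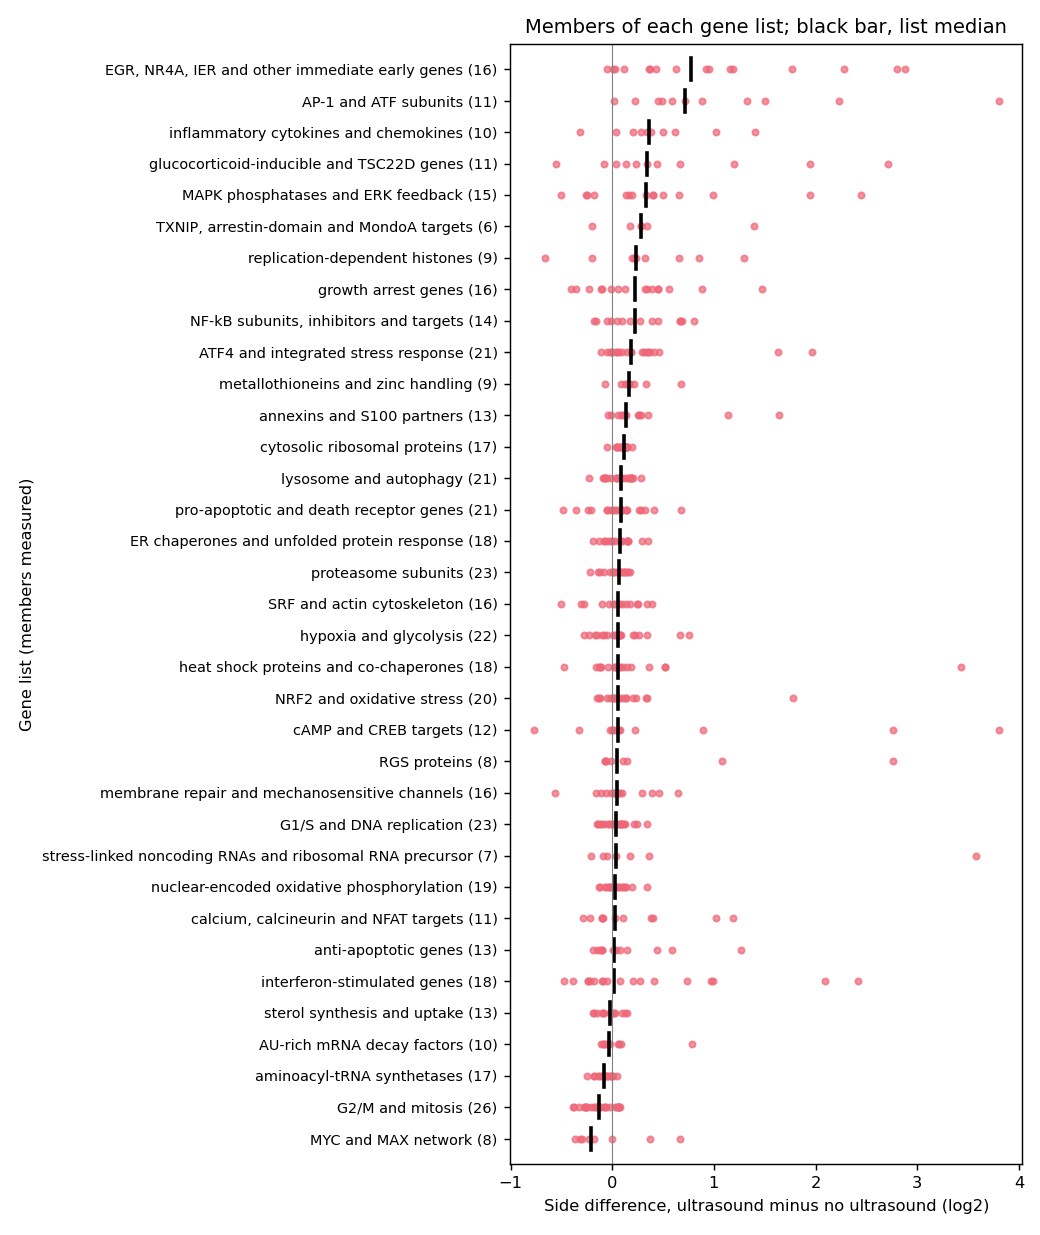
Side difference (ultrasound minus no ultrasound, log2) of each measured member of the 35 gene lists, with the list median as a black bar and the number of measured members in brackets. The medians of immediate early genes (0.77) and AP-1 and ATF subunits (0.72) lie farthest to the right, and in most other lists single members stand out while the median stays near 0.

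Markers of the myelomonocytic line were above the floor on every array for 11 of 15 genes on the table, and their summed signal was 44089 without treatment, 40927 after Sonazoid alone, 48549 after ultrasound alone and 41345 after both. The sides overlapped. Markers of differentiated monocytes and macrophages were above the floor on every array for 3 of 13, and their sum was 1433 without treatment, 1392 after Sonazoid alone, 3049 after ultrasound alone and 3064 after both. It was higher on both ultrasound arrays, FCAR and TREM1 being the members that differed, while CD14, CD163, MRC1, FCGR1A and VSIG4 were below the floor on all 4 arrays and CD36 was lower with ultrasound. The sums for T and NK cells (1 of 10 above the floor throughout, the 1 being NKG7) were 3062 without treatment, 2925 after Sonazoid alone, 3296 after ultrasound alone and 3279 after both, and those for fibroblasts and endothelium (2 of 11) were 955 without treatment, 918 after Sonazoid alone, 1026 after ultrasound alone and 923 after both. For B cells (2 of 6) the sums were 307 without treatment, 289.9 after Sonazoid alone, 292 after ultrasound alone and 252 after both, for erythroid cells and platelets (2 of 7) 169.5 without treatment, 195 after Sonazoid alone, 161 after ultrasound alone and 147 after both, and for epithelial cells (1 of 7) 126 without treatment, 119.7 after Sonazoid alone, 131 after ultrasound alone and 185 after both. EPCAM, CDH1, CD3D, CD8A, CD79B, VWF and CDH5 were below the floor on all 4 arrays. Other members of these lists were above it on all 4, namely CD79A, PAX5, PECAM1, COL1A1, HBB, GP1BA, MUC1 and NKG7.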

How the data were processed

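RNA of U937 cells was hybridised to 4 Affymetrix U133 Plus 2.0 arrays, 1 per treatment. Per the labels' protocols, it was DNase-treated and labelled by amplification from the 3' end. The authors deposited linear probe set intensities (summarisation and scaling not given in the sources used here). Of 54675 probe sets, 41097 carried exactly 1 gene symbol, 1801 several and 11777 none. Only the first kind was used, without the 62 control probe sets, and for 41043 of them the symbol was updated by Entrez identifier (RefSeq, GRCh38.p14), which gave 19775 genes.

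Each array was multiplied by a factor (1.04 for control, 0.977 for Sonazoid, 1.07 for ultrasound, 0.923 for both) to equalise means trimmed by 2% at each end, which had a 1.16-fold range. Values were floored at the pooled median (23.8) and log2 was taken. A fold is 2 to the power of the side difference, and a lower bound where an array of the lower side is at the floor. limma 3.58.1 (R 4.3.3; lmFit, eBayes) fitted 2 arrays against 2, with 2 residual degrees of freedom. On data simulated for this comparison, with 200 of 11789 genes changed, it called 8% of 2-fold and 77% of 4-fold changes and 0 unchanged genes. The simulated noise was normal and independent, with a common spread for genes of like brightness and no effect of Sonazoid. The real arrays need not follow these settings, so the shares may not carry over to them. The number of arrays limits the precision.

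Named genes were, among those above the floor on all 4 arrays with no other probe set going the opposite way, the 15 largest positive and 10 largest negative gaps; the 6 largest bounds each way; the 5 genes each with the most larger and most smaller difference with Sonazoid among those with a 2-fold gap; up to 5 separated members per list; and ACTB and GAPDH. Others belong to the 44 genes with a 2-fold gap or were chosen after their values were seen. The members and lists were chosen with earlier results of these data known. Alternatives changed the scaling, floor, probe set, filter, arrays and fit.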

Additional observations from a re-analysis of the deposited data

Results flagged for a closer look

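A control probe set that no comparison uses, for the 5' end of 28S ribosomal RNA, stood out on the ultrasound arrays, with a side difference of 3.69 (log2) and signals from 358 (control) to 16854 (combination). The median ultrasound difference of the differentiated monocyte and macrophage markers, over 6 measured genes, was -0.19 (log2) without and 0.24 with Sonazoid, opposite directions that differ by 0.43. That of the T and NK cell markers, over 2 measured genes, was 0.27 without and -0.19 with Sonazoid, a difference of -0.46. Neither difference was tested, since each rests on 1 array per treatment.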

How the results depend on the processing

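The 44 genes higher by a gap of at least 2-fold became 26 with a floor at the 75th percentile of signals (151), where 27 of the 44 were still measured, and 146 with a gap of 1.5-fold; under the other scalings, floors, filters and probe set choices they numbered 34 to 44. Of the 44, 40 kept that gap with the values as deposited, 41 under quantile normalisation and 32 without a floor (log2 of value plus 16). Leaving out an array cannot narrow a gap, so it tests nothing here. The 3 lower genes became 5 under quantile normalisation, 1 with the stricter floor, 1 with the mean of probe sets, 1 among genes above the floor on all 4 arrays and 47 with a gap of 1.5-fold. The separated genes of any size numbered 1483 lower with the values as deposited and 1653 higher with the stricter floor. Without each array in turn, 4005 to 4812 genes were separated higher and 3829 to 4251 lower, 81 to 92 and 19 to 30 of them by 2-fold, because fewer arrays have to lie apart.

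limma's 15 higher and 0 lower calls became 60 and 5 with the stricter floor, where fewer dim genes are tested, 87 and 17 with a variance trend, 5 higher among genes above the floor on at least 1 array, and 0 higher with Sonazoid as a term, which leaves 1 residual degree of freedom in place of 2; without each array in turn they were 0 to 0. The cause of the change with the variance trend was not tested. The labels give no replicate numbers by which to pair arrays; the fit with Sonazoid as a term is the one that pairs them, by Sonazoid state. Of the values under alternatives for single named genes, 2136 kept within the spread of the arrays or on their side of the threshold, 150 moved, 76 lost limma's call, 37 gained it, and 0 called genes changed direction. The side difference of GAPDH turned to -0.01 under quantile normalisation. The single array per treatment and, in dim genes, the wider distance between the arrays of a side limit these results.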

Other observations

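Below the 2-fold mark, 21 genes with a mean signal over 300 were higher with a gap of 1.5- to 2-fold and 3 were lower; they were chosen after their values were seen. PTPRO, a receptor tyrosine phosphatase, was at 1405 without treatment, 2223 after Sonazoid alone, 4171 after ultrasound alone and 4087 after both; the ultrasound arrays were nearly equal, and Sonazoid only lay between them and control. GPR183, the oxysterol receptor that guides leukocyte migration, stood at 736 without treatment, 761 after Sonazoid alone, 1379.9 after ultrasound alone and 1919.8 after both, with the combination highest. CCN3, a secreted matrix-associated protein, was at 389 without treatment, 362 after Sonazoid alone, 754 after ultrasound alone and 838 after both. ZFAND2A, a proteasome-associated protein induced by arsenite and heat, was at 424 without treatment, 487 after Sonazoid alone, 919.5 after ultrasound alone and 963 after both, and CLK1, a kinase of splicing factors, at 203 without treatment, 244 after Sonazoid alone, 449 after ultrasound alone and 479.8 after both. In each of the last 3 genes the arrays of a side lay close. LATS2, a kinase of the Hippo pathway, was at 404 without treatment, 365 after Sonazoid alone, 657 after ultrasound alone and 639 after both, and EMP3, a relative of EMP1, at 3020.2 without treatment, 2860.4 after Sonazoid alone, 4589 after ultrasound alone and 4606 after both.

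The 3 lower genes of this signal range were GFI1, a transcriptional repressor of myeloid cells, at 1947 without treatment, 1986 after Sonazoid alone, 1293 after ultrasound alone and 1237 after both, G2E3, a ubiquitin ligase, at 595 without treatment, 760.3 after Sonazoid alone, 384 after ultrasound alone and 393 after both, and ANXA2P2, at 2620.3 without treatment, 2411 after Sonazoid alone, 1495 after ultrasound alone and 1209 after both. ANXA2P2 is a pseudogene close in sequence to ANXA2, whose own probe set was higher on both ultrasound arrays, so which transcript the lower signal comes from is uncertain.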
